A study of Mus musculus with 6 samples.

Results

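Among the 13283 genes of the RNA-seq table of MICT1 KO and Scr BAT cells, 10 are regulators of thermogenesis and mitochondrial biogenesis or the uncoupling proteins that such programs serve: Zfp516, Dot1l, Ppargc1a, Ppargc1b, Esrra, Nrf1, Gabpa, Tfam, Ucp1 and Ucp2. They were taken by gene symbol, and 10 of the 10 symbols were in the table. The cells were an immortalized mouse brown preadipocyte line that stably expresses Cas9. The Scr group was 3 libraries from cells given a scrambled sgRNA by lentivirus, labelled WT for genotype, and the MICT1 KO group was 3 libraries from cells given sgRNA against MICT1, the cold-induced microprotein that the study is about. The KO cells were sorted pools and not clones, and the labels do not tell which sgRNA pool each of the 3 libraries came from. Both groups were differentiated with the same adipogenic cocktail, which held IBMX, insulin, dexamethasone, T3, indomethacin and rosiglitazone, and both received 10 µM forskolin, an activator of adenylyl cyclase, for 6 h on day 6. No library without forskolin was analysed here, so the values are levels in stimulated cells and not a response to stimulation.

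Brown adipocytes make heat when protons leak back into the mitochondrial matrix through UCP1, the uncoupling protein that defines these cells. The program needs transcription factors that switch on Ucp1 and a supply of mitochondria. Zfp516 is a cold-induced zinc finger factor that acts on the Ucp1 promoter, and Dot1l, the enzyme that methylates lysine 79 of histone H3, is its partner there. The coactivators PGC-1α (Ppargc1a) and PGC-1β (Ppargc1b) work with the nuclear receptor ERRα (Esrra) and the nuclear respiratory factors NRF-1 (Nrf1) and GABP (its DNA-binding subunit is Gabpa) to raise nuclear genes of mitochondrial proteins. One of these targets is Tfam, which packages mitochondrial DNA and starts its transcription.

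Promoter sequence of 4 of the genes is shown because each stands for a link of this network, the cAMP-responsive coactivator, the thermogenic effector, the histone methyltransferase and the mitochondrial target. All are reference sequence from RefSeq on GRCm38, 5′ to 3′ on the strand of the gene and upstream of a transcript's start, with motif letters in capitals. The stretches of Ppargc1a and Tfam lie within the span of longer gene models. Short sequence motifs were searched for on both strands in the 250 bases upstream of the start: TGACGTCA, the full cAMP response element; TGACG, its half-site, which the full element contains; TGCGCA, an NRF-1 half-site, which reads the same on both strands; CCGGAAG, an ETS core of the kind that GABP binds; and AAGGTCA, an ERR half-site.
Ppargc1a, chr5:51567726-51567975, minus strand: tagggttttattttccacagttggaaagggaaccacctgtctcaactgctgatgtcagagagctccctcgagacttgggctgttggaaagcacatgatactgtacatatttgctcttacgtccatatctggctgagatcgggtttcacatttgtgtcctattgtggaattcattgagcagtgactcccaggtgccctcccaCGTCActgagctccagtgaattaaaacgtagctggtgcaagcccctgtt
Ucp1, chr8:83290098-83290347, plus strand: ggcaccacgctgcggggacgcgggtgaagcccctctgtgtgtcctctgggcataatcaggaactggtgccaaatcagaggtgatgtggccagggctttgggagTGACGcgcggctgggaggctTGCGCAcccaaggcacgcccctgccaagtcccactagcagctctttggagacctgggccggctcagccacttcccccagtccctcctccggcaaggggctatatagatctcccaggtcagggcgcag
Dot1l, chr10:80754953-80755100, plus strand: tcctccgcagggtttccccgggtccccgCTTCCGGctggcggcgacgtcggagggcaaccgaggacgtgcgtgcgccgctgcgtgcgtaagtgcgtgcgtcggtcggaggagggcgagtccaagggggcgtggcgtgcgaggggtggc
Tfam, chr10:71238073-71238102, minus strand: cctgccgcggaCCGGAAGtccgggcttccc
The capitals mark CGTCA, the half-site on the other strand, in Ppargc1a, 49 bases before the start used here. In Ucp1 they mark TGACG at 147 and TGCGCA at 127 bases before the start. In Dot1l they mark CTTCCGG, the ETS core on the other strand, at 222 bases before the start of that transcript. In Tfam they mark CCGGAAG at 47 bases before the start, and only the 30 bases round it are shown.

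Promoters of 8 of the 10 genes were read, 9 in all since Nrf1 has a pair of them. The full element TGACGTCA and the ERR half-site AAGGTCA were in none of the 9, against 1.55% and 4.08% of 32851 mouse promoters of the same length. The half-site TGACG was found in Ppargc1a, Ucp1 and Ucp2 and is in 17.8% of all promoters. TGCGCA was found in Ucp1 and Esrra (6.43% of all promoters), and CCGGAAG in Tfam, Dot1l and Gabpa (6.91%). Neither Nrf1 promoter held any of the motifs. A match is a description of letters and was not tested as a binding site.

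The table held 15445791 to 17925567 reads per library, and its values are reads per gene rescaled by the authors for each library. Correlations of log2 values across the tested genes were 0.987 to 0.9898 within the groups and 0.929 to 0.940 between them. Being taken across genes, they are no measure over replicates. The adipocyte identity of the cells was checked by 15 markers, of which 14 were in the table. Their summed level was 8800 to 10530 CPM (reads scaled to the library total) in the Scr libraries and 990 to 1432 CPM in the MICT1 KO libraries. Of 10 brown adipocyte markers, 6 were in the table, with a summed level of 288 to 326 CPM in Scr and 179 to 200.2 CPM in MICT1 KO libraries. The sum was mostly Zic1, and 2 of 5 tested markers were lower, beside 28.3% of all tested genes. Cidea, Dio2, Cox8b and Elovl3 were not analysed here. The sum of 11 preadipocyte or fibroblast markers was 5747 to 6560 CPM in Scr and 10890 to 11730 CPM in MICT1 KO libraries. Most of that gain was Fn1, whose deposited value was 3.77-fold higher. Of 10 tested markers of this list, 5 were higher and 2 lower, beside 28.5% and 28.3% of all tested genes. The largest fold rise among these markers was that of Dcn, 26.6-fold, while Dlk1 and Pdgfra were the lower markers. Macrophage markers (4 of 10 in the table) summed to 16.6 to 23.1 CPM in Scr and 31.8 to 39.2 CPM in MICT1 KO libraries, where Cd14 was called higher and Cd68, Csf1r and Mrc1 were not called, and endothelial (1 of 6) and muscle markers (2 of 8) to at most 2.03 and 2.17 CPM in any library. Bulk RNA cannot tell a smaller share of differentiated cells from less RNA per cell, and the part of this shift in the values that follow was not tested.

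Of the 10 regulators, 9 passed the filter on low values (at least 10 in at least 3 libraries), and 6 of these 9 were lower in MICT1 KO cells, 0 were higher and 3 were not called. Calls are by limma-trend on log2(value + 1) with Benjamini-Hochberg adjustment over 12507 genes and an adjusted p under 0.05. By the same call 28.3% of all tested genes were lower and 28.5% higher. Of the 6, Ucp1 passed the filter through its Scr values alone. Zfp516, Dot1l, Ppargc1b and Ucp1 were at least 2-fold lower, which held for 5.76% of all tested genes. The lower calls of Ucp2 and Tfam were of about 1.2-fold. In 8 of the 9 every MICT1 KO value lay under every Scr value, against 31.2% of all tested genes. Ucp1 is among these 8, but the filter itself fixed that its groups could not overlap. Its place in this count, in the 6 and among the 2-fold lower genes therefore adds no support. The fold change, p and RPKM limits of the methods (1.8-fold, unadjusted p under 0.05 and a maximum RPKM, reads scaled by exon length and library total, of at least 4) were met by Zfp516, Dot1l and Ppargc1b, 3 of the 9, against 4.13% of tested genes in the same direction.

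**Figure D1:**
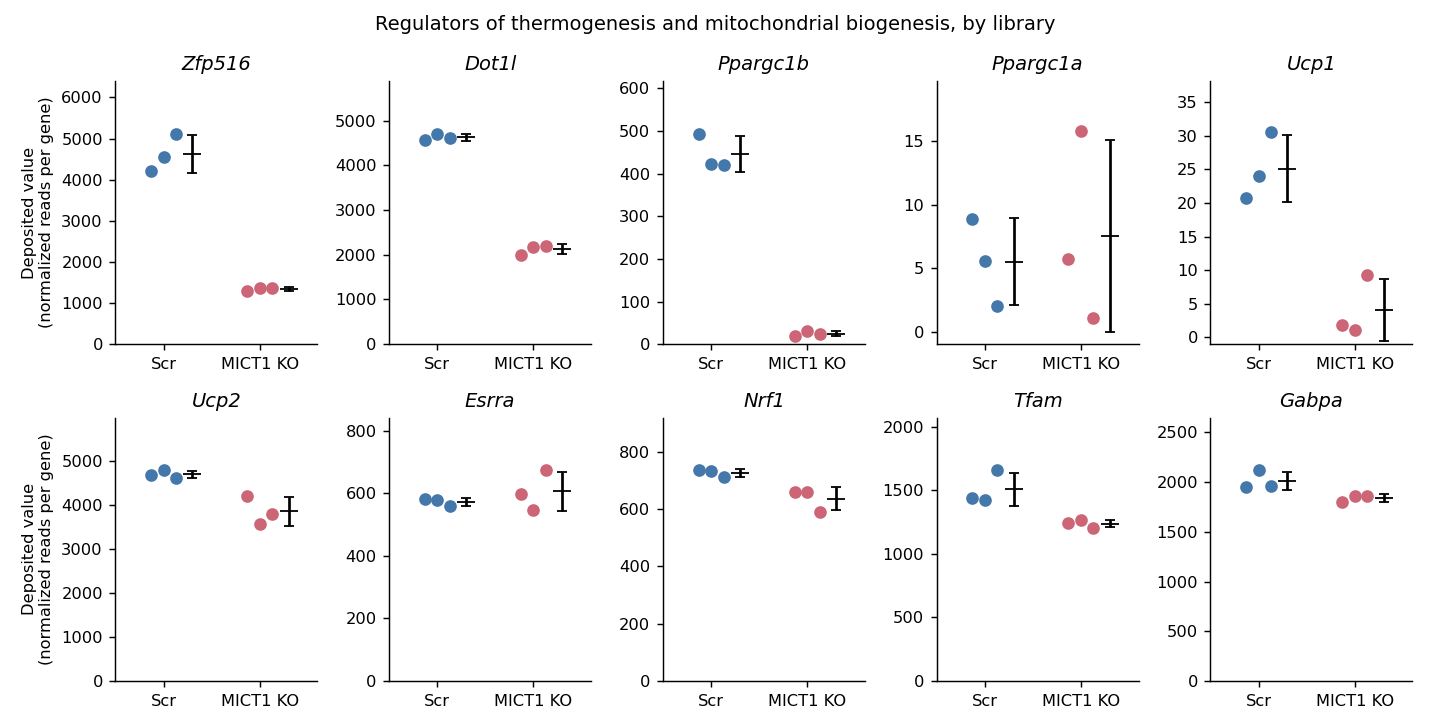
Deposited values (normalized reads per gene) of the 10 regulators by library, blue for the 3 Scr and red for the 3 MICT1 KO libraries, with the mean and its SD as black bars and a separate linear axis for each gene. The groups of Zfp516, Dot1l and Ppargc1b are far apart, those of Ucp2, Tfam, Nrf1 and Gabpa lie close together without overlap, and those of Ppargc1a and Esrra overlap.

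Zfp516 (gene ID 329003, GRCm38 chr18:82909688-83005314) fell to 29.0% of its Scr level. Its values were 4210, 4562 and 5119.5 (Scr) against 1295, 1363 and 1371 (MICT1 KO). All of the MICT1 KO values were low and close together, while the Scr values spread more widely, and the groups did not overlap. The means were 4630 ± 459 (SD, n = 3) and 1343 ± 42.2 (SD, n = 3), a 3.45-fold difference and a fitted log2 difference of -1.78 (standard error 0.067, 95% confidence interval -1.92 to -1.64, adjusted p = 4.31e-15 from limma-trend). Of all tested genes, 2.18% had a lower log2 fold change.

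Its partner Dot1l (208266, chr10:80755101-80795461) fell to 46.0% of Scr. Its values were 4561, 4708 and 4618 (Scr) against 1994, 2184 and 2204 (MICT1 KO). The Scr values lay within a narrow band, and every MICT1 KO value was less than the lowest of them by a wide margin. The means were 4629 ± 74.4 (SD, n = 3) and 2127 ± 116 (SD, n = 3), a 2.18-fold difference and a fitted log2 difference of -1.12 (standard error 0.057, 95% confidence interval -1.242 to -1.003, adjusted p = 6.36e-13 from limma-trend), and 5.03% of tested genes had a lower one. Within each library the log2 ratio of Zfp516 to Dot1l was -0.12, -0.05 and 0.15 (Scr) against -0.62, -0.68 and -0.68 (MICT1 KO). The ratio was lower in every MICT1 KO library, with a mean difference of -0.66, at p = 0.1 by an exact two-sided permutation test, the smallest p that 3 libraries against 3 can give.

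The PGC-1 coactivators differed widely from each other in level. Ppargc1b (170826, chr18:61291445-61400756), which encodes PGC-1β, had values of 494, 422 and 419 (Scr) against 19.1, 30.6 and 22.8 (MICT1 KO). This was the lowest share of the Scr level among the tested regulators, 5.43%, with no overlap between the groups. The means were 445 ± 42.2 (SD, n = 3) and 24.1 ± 5.86 (SD, n = 3), an 18.4-fold difference and a fitted log2 difference of -4.17 (standard error 0.21, 95% confidence interval -4.60 to -3.74, adjusted p = 3.41e-13 from limma-trend), and 0.248% of tested genes had a lower log2 fold change.

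Ppargc1a (19017, chr5:51454249-52115853), which encodes the cAMP-inducible coactivator PGC-1α, was hardly read in either group of these forskolin-treated cultures. Its values were 8.90, 5.56 and 2.04 (Scr) against 5.72, 15.8 and 1.04 (MICT1 KO), which stand for 9, 6 and 2 reads and for 6, 15 and 1 reads. The groups overlapped from end to end, and both the highest and the lowest value were in MICT1 KO libraries. Ppargc1a did not pass the filter on low values. In the fit without that filter its log2 fold change was 0.07 with a 95% confidence interval of -1.49 to 1.63 (adjusted p = 0.943 from limma-trend). A change in either direction within that interval is not excluded by so few reads.

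Ucp1 (22227, chr8:83290348-83298456), the uncoupling protein of brown fat, was also at low counts. Its values were 20.8, 24.1 and 30.5 (Scr) against 1.91, 1.05 and 9.33 (MICT1 KO), or 21, 26 and 30 reads against 2, 1 and 9 reads. Every MICT1 KO value was lower than every Scr value, and MICT1 KO replicate 3 was the highest of its group. The means were 25.1 ± 4.96 (SD, n = 3) and 4.10 ± 4.55 (SD, n = 3), 16.3% of Scr, with a fitted log2 difference of -2.71 (standard error 0.64, 95% confidence interval -4.04 to -1.38, adjusted p = 0.00112 from limma-trend). Ucp1 passed the filter through the Scr libraries alone, and a gene kept in this way had to differ between the groups. Its size of change is known only within that wide interval. It moved from -2.71 to -1.83 with a pseudocount of 5 and to -3.40 without MICT1 KO replicate 3.

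Ucp2 (22228, chr7:100493337-100499629), a member of the uncoupling protein family that many tissues express, was read in large numbers. It had values of 4689, 4792 and 4621 (Scr) against 4215, 3573 and 3794 (MICT1 KO). The MICT1 KO values were lower in all 3 libraries but spread over more than the gap to Scr. The means were 4701 ± 85.9 (SD, n = 3) and 3860 ± 326 (SD, n = 3), a 1.22-fold difference and a fitted log2 difference of -0.29 (standard error 0.060, 95% confidence interval -0.41 to -0.16, adjusted p = 0.000383 from limma-trend).

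Of the DNA-binding factors of mitochondrial biogenesis, Esrra, Nrf1 and Gabpa were not called in either direction. Esrra (26379, chr19:6910977-6922048), the nuclear receptor ERRα, had values of 581, 579 and 558 (Scr) against 598, 547 and 673 (MICT1 KO). The MICT1 KO range enclosed the Scr range. The log2 fold change was 0.08 (standard error 0.093, 95% confidence interval -0.12 to 0.27, adjusted p = 0.503 from limma-trend). Its sign rested on MICT1 KO replicate 3, without which it was -0.0018.

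Nrf1 (18181, chr6:30047985-30153458) is nuclear respiratory factor 1, a different gene from the one for the stress factor that shares the abbreviation. Its values were 736, 732 and 712 (Scr) against 659, 660 and 590 (MICT1 KO). All 3 MICT1 KO values were under the lowest Scr value, and the means were 727 ± 12.7 (SD, n = 3) and 636 ± 40.0 (SD, n = 3). The log2 fold change of -0.19 (standard error 0.083, 95% confidence interval -0.37 to -0.02) did not pass, at an adjusted p = 0.0519 from limma-trend. It passed without MICT1 KO replicate 1 (-0.22, adjusted p = 0.0472 from limma-trend), and the adjusted p reached 0.212 across the other fits.

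Gabpa (14390, chr16:84834891-84863783), the DNA-binding subunit of GABP, had values of 1948, 2118 and 1965 (Scr) against 1799, 1865 and 1858 (MICT1 KO). The groups did not overlap, but the gap between them was smaller than the spread within Scr. The log2 fold change was -0.13 (standard error 0.061, 95% confidence interval -0.25 to 0.00058) and was not called, with an adjusted p = 0.0836 from limma-trend.

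Tfam (21780, chr10:71225468-71238328), the mitochondrial transcription factor downstream of these factors, had values of 1440, 1425 and 1657 (Scr) against 1241, 1265 and 1206 (MICT1 KO). Scr replicate 3 was the highest of its group, and all MICT1 KO values lay under the Scr values. The means were 1507 ± 130 (SD, n = 3) and 1237 ± 30.1 (SD, n = 3), a 1.22-fold difference and a fitted log2 difference of -0.28 (standard error 0.071, 95% confidence interval -0.43 to -0.13, adjusted p = 0.00202 from limma-trend).

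**Figure D2:**
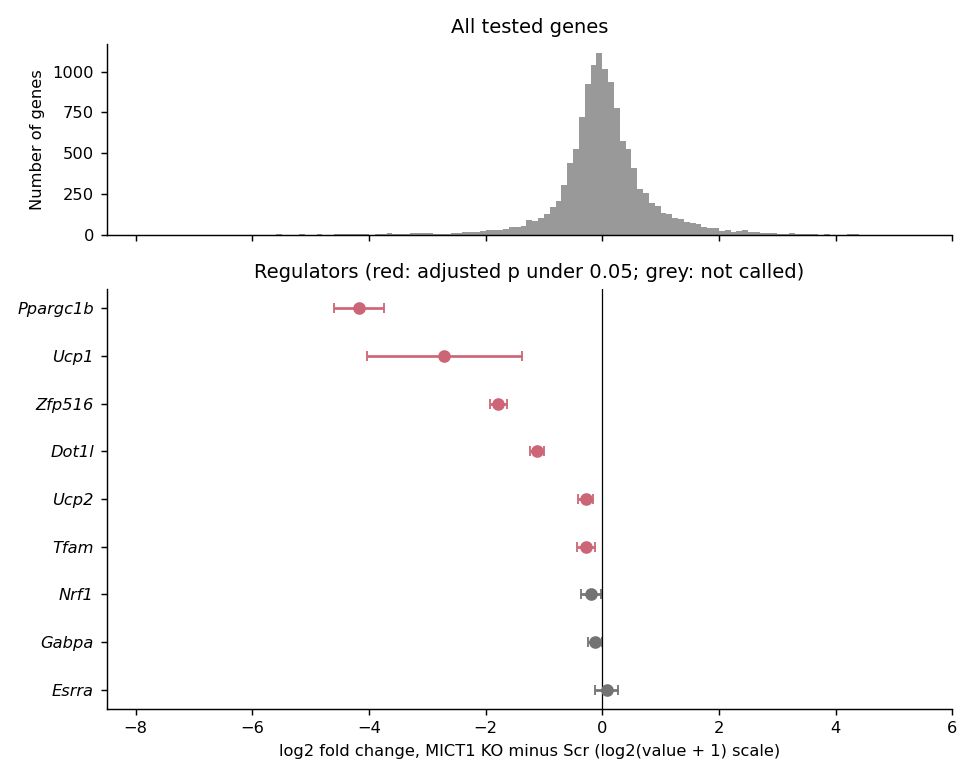
Log2 fold change of MICT1 KO against Scr, on the log2(value + 1) scale. The upper panel is a histogram of the 12507 tested genes, and the lower panel shows the 9 tested regulators as points with 95% confidence intervals from limma-trend, red where the adjusted p is under 0.05. Ppargc1b, Ucp1, Zfp516 and Dot1l lie at -4.17 to -1.12, while the other 5 lie between -0.29 and 0.08. Of these 5, Ucp2 and Tfam are red, and 26.8% and 27.3% of all tested genes had a lower log2 fold change than they did. The median of all tested genes is -0.0053.

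Ratios within a library compare Zfp516 and Dot1l with the other 8 regulators without any scaling between libraries. Zfp516 was lower in all 3 MICT1 KO libraries relative to Ucp2, Tfam, Nrf1, Gabpa and Esrra, with differences in the mean log2 ratio of -1.49, -1.50, -1.59, -1.65 and -1.86 and no overlap between the groups in any of the 5. For Dot1l the differences to the same genes were smaller, at -0.84, -0.84, -0.93, -0.996 and -1.20, again without overlap. Relative to Ppargc1b both were higher in MICT1 KO cells. The log2 ratio of Zfp516 to Ppargc1b was 3.09, 3.43 and 3.61 (Scr) against 6.01, 5.43 and 5.85 (MICT1 KO), a difference of 2.39, and that of Dot1l to Ppargc1b differed by 3.05. These non-overlapping ratios each had p = 0.1 by the exact two-sided permutation test (adjusted p = 0.121 over 17 ratios), which cannot go lower with 3 libraries a group.

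The ratios to the low-count genes were less certain. The log2 ratio of Dot1l to Ucp1 ranged from 7.20 to 7.71 in Scr cells and from 7.74 to 10.1 in MICT1 KO cells, a difference of 1.59 without overlap. With a pseudocount of 5 that difference was 0.70 (exact permutation p = 0.3), and it ran from 1.095 without MICT1 KO replicate 2 to 2.25 without MICT1 KO replicate 3. Zfp516 relative to Ucp1 overlapped (difference 0.93, exact permutation p = 0.4). Relative to Ppargc1a both overlapped, with differences of -1.85 for Zfp516 (exact permutation p = 0.2) and -1.20 for Dot1l (exact permutation p = 0.3). Of 8 ratios for each gene, 6 were lower and 2 higher in MICT1 KO libraries for Zfp516 and for Dot1l.

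**Figure D3:**
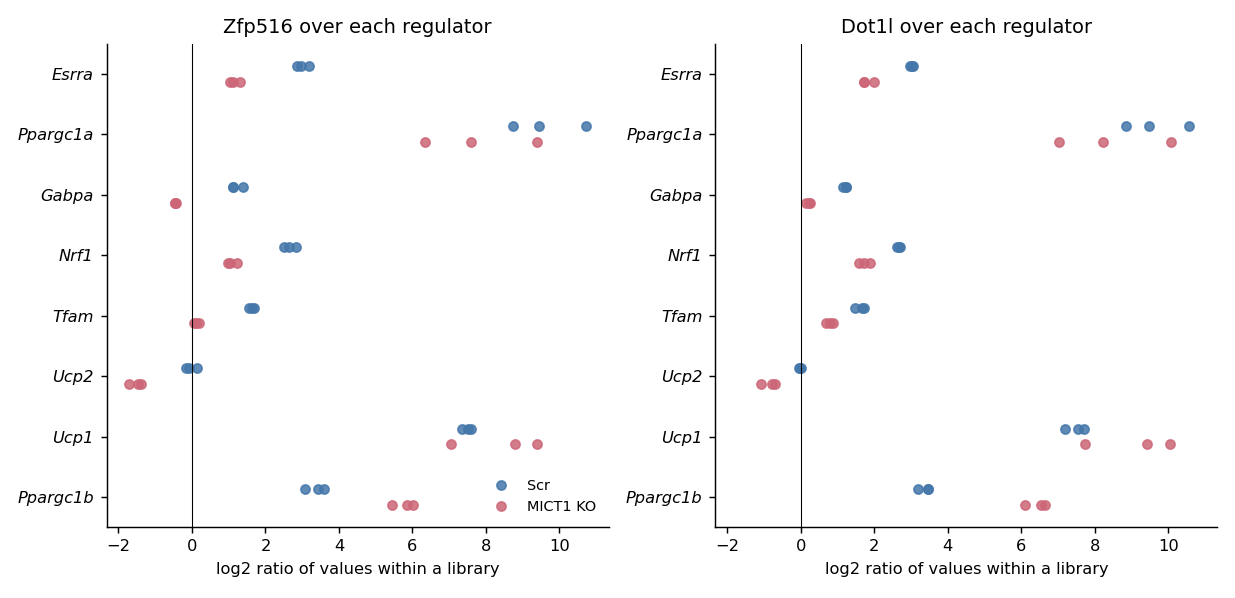
Log2 ratio of Zfp516 (left) and Dot1l (right) to each of the other 8 regulators within each library, blue for Scr and red for MICT1 KO. Ratios to Esrra, Gabpa, Nrf1, Tfam and Ucp2 are lower in all 3 MICT1 KO libraries, ratios to Ppargc1b are higher in all 3, and those to Ppargc1a overlap.

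Levels between genes were compared as RPKM, which divides by exon length, here of all annotated exons of a gene merged. This length can exceed that of the transcripts made. For Ucp2 it was 6989 bases, more than its RefSeq gene span of 6293, so its RPKM is likely understated. The order of genes with near levels is therefore uncertain. In Scr cells the order of mean RPKM was Ucp2 (41.1 ± 0.675), Zfp516 (34.2 ± 3.20), Dot1l (32.5 ± 0.0990), Gabpa (21.6 ± 0.723), Tfam (20.8 ± 1.805), Esrra (7.97 ± 0.232), Ppargc1b (6.82 ± 0.748), Nrf1 (4.32 ± 0.112), Ucp1 (0.938 ± 0.181) and Ppargc1a (0.0512 ± 0.0325), each with SD and n = 3. The ranges of Zfp516 and Dot1l overlapped, as did those of Gabpa and Tfam, and no other neighbours did. In MICT1 KO cells the order of mean RPKM became Ucp2 (33.8 ± 2.67), Gabpa (19.8 ± 0.508), Tfam (17.1 ± 0.405), Dot1l (14.98 ± 0.904), Zfp516 (9.95 ± 0.373), Esrra (8.46 ± 0.902), Nrf1 (3.79 ± 0.226), Ppargc1b (0.371 ± 0.0914), Ucp1 (0.154 ± 0.171) and Ppargc1a (0.0699 ± 0.0704). Zfp516 and Dot1l, which stood above Gabpa and Tfam in Scr cells, stood below them in MICT1 KO cells, and Ppargc1b, Ucp1 and Ppargc1a each overlapped the next at the bottom. In 8 of the 10 genes the highest library reached an RPKM of 4, Ucp1 (at most 1.14) and Ppargc1a being the exceptions.

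The genes whose log2 values followed Zfp516 most closely over the 6 libraries were Dnajc5, Abca1 and Kdm7a (Pearson r of 0.9997, 0.9995 and 0.9995). For Dot1l they were Tgfbr1, Rad54l2 and Tet3 (0.9996, 0.9989 and 0.9988). These r are descriptions over 6 libraries that fall into the pair of groups, and 376 genes exceeded 0.99 with Zfp516 and 304 with Dot1l.

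The wider pathway was followed through 7 lists of related genes, of which 83 of 87 were in the table and 82 were tested. Of the 82, 37 were lower (45.1%) and 15 higher (18.3%), with a median log2 fold change of -0.20, beside 28.3%, 28.5% and -0.0053 over all tested genes. The lists were chosen with earlier results known, and no list was tested as a set.

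Of 19 PGC-1, ERR and NRF cofactors, 12 were lower (63.2%) and 3 higher (15.8%), beside 28.3% and 28.5% of all tested genes. The median log2 fold change was -0.24. Nrip1, a corepressor of PGC-1 targets also known as RIP140, went from 1761 ± 177 to 811 ± 90.2 (log2 difference -1.12, limma-trend adjusted p = 5.39e-10). The coactivator Ncoa1 went from 710 ± 41.4 to 439 ± 47.5 and Prkaa1, a catalytic subunit of the AMP-activated kinase, from 1848 ± 152 to 1147 ± 51.8 (all SD, n = 3). Both the corepressor and the coactivator thus fell. Among those that rose were Perm1 (20.6 ± 8.69 to 42.7 ± 6.19) and Hcfc1 (5016 ± 100.2 to 5798 ± 331).

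Of 17 genes of mitochondrial DNA transcription and replication, which work beside Tfam, 9 were lower (52.9%) and 0 higher, with a median log2 fold change of -0.35. The 3 with the largest falls were Tfb1m (106 ± 14.1 to 58.3 ± 21.4, log2 fold change -0.90), Tfb2m, which starts mitochondrial transcription with Tfam (551 ± 47.0 to 360.5 ± 24.2, -0.61), and Ssbp1, the single-strand binding protein (568 ± 53.7 to 375 ± 33.8, -0.60). Tfam itself, at -0.28, lay above that median. Of 10 fusion and fission genes, 4 were lower (40%) and 1 higher (10%), beside 28.3% and 28.5% of all tested genes. Among the lower was the outer membrane fusion GTPase Mfn1 (1256 ± 26.9 to 958 ± 56.7), and the higher gene was Fis1 (794 ± 46.3 to 948 ± 51.0).

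Besides Ucp1 and Ucp2, other members of the uncoupling family and the ADP/ATP carriers were read. Of 5 tested, 0 were lower and 3 higher (60%), beside 28.3% and 28.5% of all tested genes. The median log2 fold change was 0.46. With the filter at a maximum RPKM of 4, 1 was higher, and with scaling by the upper quartile 4 were. Without Scr replicate 3, MICT1 KO replicate 1 or MICT1 KO replicate 2, 2 were higher. Slc25a4, an ADP/ATP carrier that can itself leak protons, rose from 3836 ± 148 to 5282 ± 220.4 (log2 difference 0.46, limma-trend adjusted p = 4.09e-07), Slc25a27 from 24.5 ± 6.64 to 45.9 ± 2.91 (adjusted p = 0.0224 from limma-trend) and Slc25a30 from 180 ± 2.32 to 241 ± 28.2 (adjusted p = 0.0159 from limma-trend). Ucp3 was in the table at values of 2.97 to 13.5 and did not pass the filter.

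Of 6 tested proteins that form complexes with Dot1l, 2 were lower and 2 higher (33.3% each), near the 28.3% and 28.5% of all tested genes. Mllt10, which binds Dot1l and recruits it to chromatin, went from 1454 ± 34.3 to 1051 ± 50.3 (log2 difference -0.47, limma-trend adjusted p = 5.45e-06) and Aff4 from 4255 ± 68.0 to 3283 ± 176, while Mllt1 rose from 992 ± 39.0 to 1343 ± 62.1 and Aff1 from 2042 ± 165 to 3380 ± 346 (0.72, adjusted p = 3.64e-08 from limma-trend).

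Of 16 tested transcription factors and chromatin enzymes of brown fat, 5 were lower (31.25%) and 4 higher (25%), near the 28.3% and 28.5% of all tested genes. Among the enzymes were Ehmt1, Kdm1a and Hdac3, none of them called. The median log2 fold change of the list was -0.0050. The higher genes were 2 with the filter at a maximum RPKM of 4. Pparg, the master regulator of adipocyte differentiation and also one of the adipocyte markers, fell from 3742 ± 467 to 754 ± 66.7 (log2 difference -2.31, limma-trend adjusted p = 1.69e-15). Zbtb16 fell from 629 ± 106 to 125 ± 65.8, and Irf4, a thermogenic partner of PGC-1α, from 38.5 ± 9.86 to 3.66 ± 2.39. Irf4 passed the filter through the Scr libraries alone, so its groups could not overlap. Its place among the lower genes of this list and of all lists therefore adds no support. Ebf2, which marks committed brown precursors, rose from 65.5 ± 7.57 to 156 ± 24.8 (log2 fold change 1.24), Foxc2 rose from 67.0 ± 18.8 to 118 ± 21.7 (0.82), and Zc3h10 rose from 299 ± 27.4 to 405 ± 26.9 (0.44, adjusted p = 0.00237 from limma-trend).

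Of 9 repressors of the brown fat program, 5 were lower (55.6%) and 2 higher (22.2%), or 1 higher with that filter. The median log2 fold change was -0.33, and 28.3% and 28.5% of all tested genes were lower and higher. Nr1h3, the liver X receptor α, fell from 252 ± 27.5 to 30.1 ± 5.40 (log2 fold change -3.04) and Foxo1 from 3111 ± 73.3 to 1245 ± 103 (-1.32). The higher genes were Zfp521, an antagonist of Ebf proteins (115 ± 27.6 to 237 ± 15.2, 1.07), and Hoxc10 (405 ± 54.7 to 558 ± 38.7, 0.47).

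**Figure D4:**
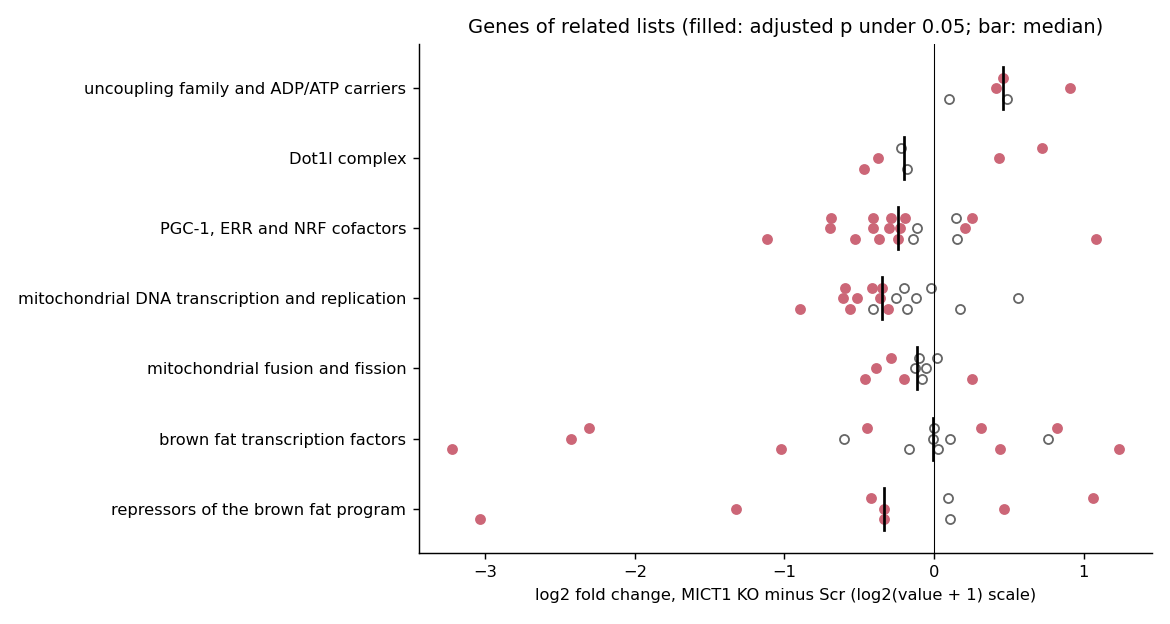
Log2 fold change of MICT1 KO against Scr of the tested genes of the 7 related lists, 1 point per gene, filled where the adjusted p by limma-trend is under 0.05 and with a black bar at the median of the list. The mitochondrial DNA list has filled points on the lower side only and the uncoupling and carrier list on the higher side only. The list of brown fat transcription factors, which includes chromatin enzymes, has them on both sides, from -3.22 to 1.24. The point at -3.22 is Irf4, which passed the filter through the Scr libraries alone.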

How the data were processed

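RNA-seq of 6 libraries, 3 Scr and 3 MICT1 KO, was analysed from 1 deposited gene table. The authors deposited a normalized signal per gene. The submitters' processing notes name STAR, Partek, DESeq2 and builds GRCm38 and mm10, and the counting model and annotation are not given in the sources used here. Of the values under 20 in each library, 88.7% to 90.2% were whole multiples, within 0.01, of a step of 0.927 to 1.05 per read. As this was not so for nearly all values, no count test was used. For the regulators, 58 of 60 values divided by the step were whole within 0.1, and the reads printed are these, rounded. The table has no value at 0, and its smallest is 1.03e-05. Genes with almost no read in a library are thus listed, while any at exactly 0 in a library may have been left out. The sample labels and the methods describe library preparation differently.

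Genes that reached 10 in 3 or more libraries were tested with limma-trend (limma 3.58.1, R 4.3.3) on log2(value + 1), with a pseudocount of 1, over all 6 libraries without covariates. The threshold was a Benjamini-Hochberg adjusted p of 0.05 over 12507 genes, and log2 fold changes of low genes are understated by the pseudocount. CPM and RPKM used the library total and GENCODE vM21 exon lengths, with all exons of a gene merged, found for 13122 genes (98.8%). Ratios within libraries were compared by exact two-sided permutation tests. The fit was tested on simulated data with far fewer changed genes than were called here and the same dispersion for every gene. That test therefore does not show how often calls in these data are wrong. Named list genes were those past the threshold with the 3 largest rises or falls in a list and exceptions to its direction. The members and lists were chosen with earlier results of these data known. Replicates are cultures or libraries of 1 cell line, and the labels do not say that they were separate experiments, so that p-values measure only the spread between these samples. Alternatives were other scaling, pseudocounts, filters, limma-voom, the replicate number as a block and each library left out in turn. MICT1 itself was not analysed here. Some single genes are not reported here.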

Additional observations from a re-analysis of the deposited data

How the results depend on the processing

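Of the 9 tested regulators, Zfp516, Dot1l, Ppargc1b, Ucp2 and Tfam kept their direction and their call in 14 other settings, with log2 fold changes of -1.85 to -1.71, -1.15 to -1.08, -4.35 to -3.96, -0.35 to -0.23 and -0.32 to -0.21. Ucp1 ranged from -3.40 to -1.83 and could not be tested with the filter at a maximum RPKM of 4. As it passed the main filter through Scr alone, its calls say nothing of stability. Esrra reversed to -0.0018 without MICT1 KO replicate 3 (range -0.0018 to 0.15 with each library left out). Nrf1 passed with the RPKM filter (adjusted p = 0.0482 from limma-trend) and without MICT1 KO replicate 1. With the RPKM filter the related lists held 9 higher genes in place of 15, with the loss in part in the carriers (1 for 3), the brown fat factors (2 for 4) and the repressors (1 for 2). The list of mitochondrial DNA transcription and replication held 7 lower genes in place of 9 with that filter or without Scr replicate 3. It held 6 without MICT1 KO replicate 1. No ratio within libraries changed direction with a pseudocount of 0 or 5 or without any library, but that of Dot1l to Ucp1 overlapped between groups at a pseudocount of 5 (0.70) and was 2.10 at 0. The difference in the ratio of Zfp516 to Ucp1 went from 0.93 to 0.047 with a pseudocount of 5, so that little more than its sign was kept. The replicate numbers did not pair the libraries (correlations of same-numbered deviations of -0.0236, -0.0155 and 0.0637). With the replicate number as a block, 6 regulators were lower and 0 higher, 36 and 15 list genes were lower and higher, and 3512 and 3543 of all genes were lower and higher, against 3544 and 3569. Scaling by the upper quartile moved the median of all genes by 0.036 and made 5 cofactors higher in place of 3. Depth limits Ucp1 and Ppargc1a, at 30 and 15 reads at most.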
